A study of Mus musculus with 6 samples.

Results

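Collagens are triple helices of 3 polypeptide chains, and each chain is the product of its own gene. The collagen chain genes described here were the rows of the count tables named Col, a number, a and a number, that reached 1 CPM (counts scaled to library size) in at least 1 of 6 libraries. This rule took 40 of the 41 such rows, among 14810 genes at that level and 25793 in all. Col13a1, which encodes a transmembrane collagen, was left out at no more than 0.0637 CPM. The 5 members nearest above the limit were Col22a1, Col4a3, Col4a4, Col9a1 and Col19a1, with highest levels of 1.15, 1.16, 1.33, 1.34 and 1.55 CPM. Col26a1 is listed in the tables under its older symbol Emid2, so that the rule did not take it.

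RNA was sequenced from mouse embryonic fibroblasts, primary connective tissue cells grown from E13.5 embryos of matings between carriers of an Sptbn1 and of a Smad3 mutation, in medium with 10% fetal bovine serum. The 6 groups, with 1 library each, were wild type (WT), Sptbn1+/-, Sptbn1-/-, Smad3+/-, Smad3-/- and the double heterozygote Sptbn1+/-;Smad3+/-. The labels write beta-2SP for the protein of Sptbn1, a spectrin of the membrane skeleton that binds SMAD3. SMAD3 carries the signal of TGF-beta receptors to the nucleus, where it regulates transcription. Neither the embryo behind each library nor the part of each gene that was removed is given in the sources used here. Counts on genes came to 11407587, 6888076, 6856680, 10477425, 21329087 and 31125055 in this order of the libraries, which is kept in every list of 6 values below.

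Fibroblasts secrete most of the fibrillar collagen of connective tissue, above all types I, III and V, whose chains assemble into cross-striated fibrils. Network collagens such as type IV form sheets in basement membranes, FACIT collagens sit on the surface of fibrils, and type VI forms beaded filaments. TGF-beta signalling through SMAD proteins is known for raising the transcription of fibrillar collagen genes in fibroblasts. The members were 11 fibrillar, 9 network, 9 FACIT and 11 other chains, the last class holding type VI, the basement membrane collagens XV and XVIII, the anchoring fibril collagen VII and transmembrane chains.

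With 1 library per genotype no pair of genotypes could be tested, so each ratio compares 2 libraries and each genotype name stands for the library so labelled. A ratio of scaled counts is followed by its exact Clopper-Pearson 95% interval. A gene is called higher or lower where both ends of its interval pass 1.5-fold in 1 direction. The reads carried no molecular identifiers and are not independent, so an interval holds counting error and nothing else. The same call over all 14810 genes is given as the background.

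Some facts of the libraries touch every result. Spnb2, the symbol of Sptbn1 in the tables, was at 75.5 and 54.3% of WT in the libraries labelled Sptbn1+/- and Sptbn1-/-. It was at 48.9% in the double heterozygote. In Smad3-/-, which has no mutant Sptbn1 label, Spnb2 was at 71.99% of WT, below its level in Sptbn1+/-. In Smad3+/- it was above WT. The level of Spnb2 thus did not follow the Sptbn1 label alone. Smad3 ran against its labels, at 149, 199 and 381% of WT in the libraries labelled Smad3+/-, Smad3-/- and double heterozygote, so a direction for Smad3 is one of the label. Uniquely placed reads fell on genes for 80.1% in Smad3-/- and 81.2% in the double heterozygote, against 40.9 to 43.3% in the other 4 libraries, which are called the 4 lower-share libraries. Xist, transcribed from the inactive X chromosome of female cells, was at 2747 CPM in Smad3+/- and at no more than 16.3 CPM elsewhere. In bulk RNA, fewer cells of a type and less RNA per cell cannot be told apart. All 12 fibroblast markers reached 1 CPM in at least 1 library. Their summed level of 5989 to 7150 CPM was led by Vim, the intermediate filament vimentin, which stood at 2362 CPM in WT and 5203 CPM in Smad3-/-. Against WT 2 of the 12 were higher and 7 lower in Smad3-/-, with a median log2 ratio of -0.85, while the double heterozygote had 3 higher and 2 lower, and Smad3+/- 2 and 2. Rn18s, the 18S ribosomal RNA, was at 0.539 and 2.36% of WT in Smad3-/- and the double heterozygote, and Malat1, a nuclear RNA, at 11.6 and 0.870%. The part of these differences in the results below was not tested.

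Collagen chains made up 3.42% (exact 95% interval 3.41 to 3.43) of all counts on genes in WT, 3.57% (3.56 to 3.59) in Sptbn1+/- and 3.37% (3.36 to 3.39) in Sptbn1-/-. The share was 2.45% (2.44 to 2.46) in Smad3+/-, 2.26% (2.25 to 2.27) in Smad3-/- and 6.03% (6.02 to 6.03) in the double heterozygote. The double heterozygote thus held the largest share of the 6 and Smad3-/- the smallest. Of the 40 chains, 29 had at least 1 CPM in all 6 libraries and 19 reached 100 CPM in some library. The highest level fell in the double heterozygote for 25 members, and the lowest in Smad3+/- for 16.

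**Figure D1:**
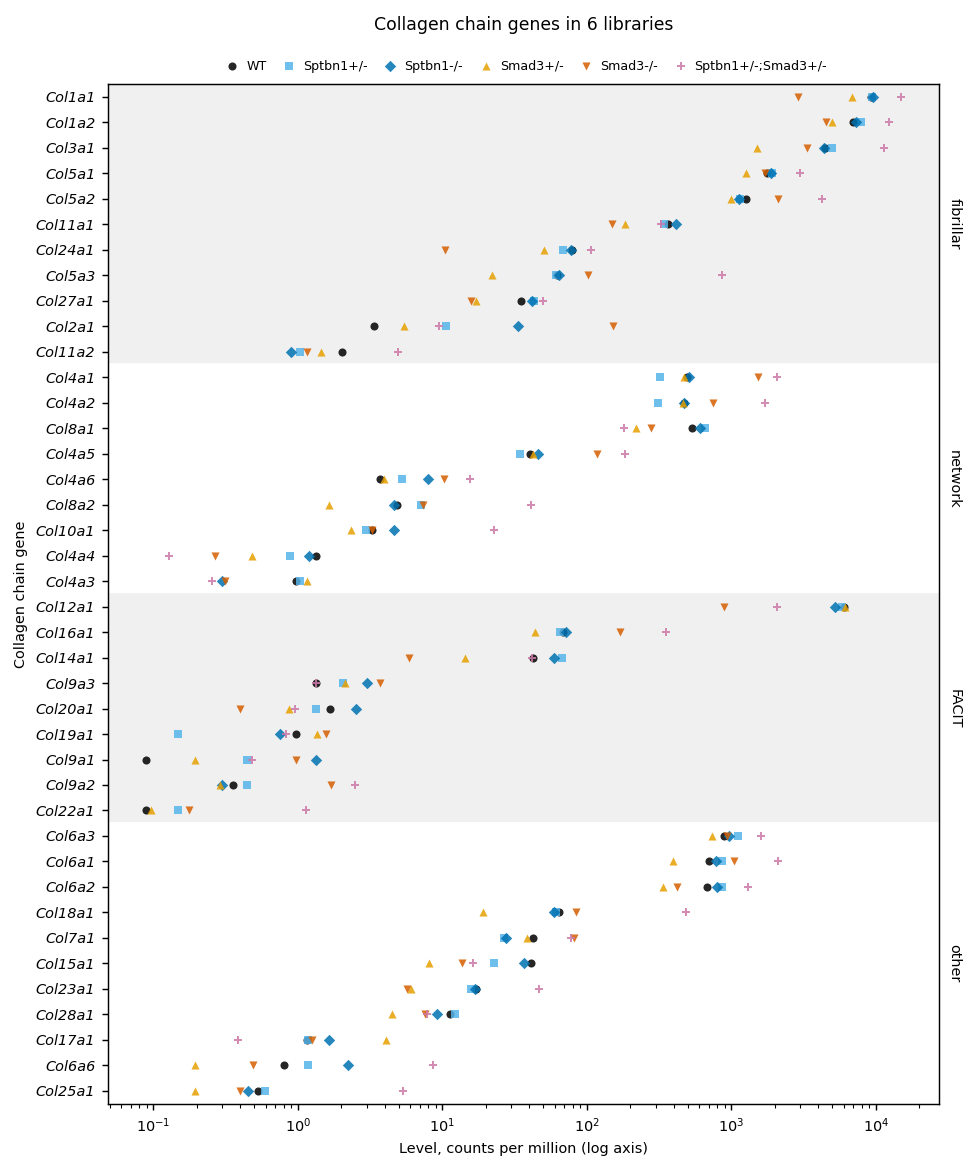
Level of each of the 40 collagen chain genes (rows, by class) in CPM on a log axis, with 1 symbol per library. A value of 0 is not drawn. The double heterozygote symbol lies farthest to the right for 25 of 40 genes, and the WT and both Sptbn1 symbols lie close together for most genes above 10 CPM.

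The fibrillar chains of types I and III were the most abundant. Col1a1 and Col1a2, the chains of type I collagen, lie on chromosomes 11 and 6. Col1a1 stood at 9319, 9419, 9533, 6903, 2896 and 14982 CPM. Col1a2 stood at 6997, 7944, 7250, 4964, 4558 and 12344 CPM. Both were lowest in Smad3-/- and highest in the double heterozygote. Col3a1, the single chain of type III collagen, stood at 4467, 4972, 4352, 1509.8, 3341 and 11421 CPM, and was lowest in Smad3+/-. Divided by the length of the longest protein-coding transcript, Col1a1 led in every library but Smad3-/-, with 1571 CPM per kb in WT against 1308 for Col1a2 and 803 for Col3a1. In Smad3-/- the order was Col1a2 at 852, Col3a1 at 600.4 and Col1a1 at 488 CPM per kb. The summed level of the fibrillar class was 24375 CPM in WT, 15917 in Smad3+/-, 15033 in Smad3-/- and 47369 in the double heterozygote.

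Sequences just before the start sites of Col1a2 and Col3a1 are shown because these 2 abundant fibrillar chains differed in the Smad3+/- library, where Col3a1 was called lower and Col1a2 was not. The windows are from RefSeq on GRCm38.p6, at chr6:4505368-4505617 on the plus strand for Col1a2 and at chr1:45311288-45311537 on the plus strand for Col3a1. Capitals mark matches of CCAAT, of CAGACA, which holds the core that SMAD proteins are known to bind, of GGGCGG and of TATAAA, on either strand.
Col1a2: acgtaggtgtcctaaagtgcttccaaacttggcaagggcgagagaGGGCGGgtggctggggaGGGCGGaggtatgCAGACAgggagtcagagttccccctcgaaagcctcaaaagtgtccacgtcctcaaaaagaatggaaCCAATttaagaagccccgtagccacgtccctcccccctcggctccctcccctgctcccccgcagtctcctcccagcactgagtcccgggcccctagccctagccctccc
Col3a1: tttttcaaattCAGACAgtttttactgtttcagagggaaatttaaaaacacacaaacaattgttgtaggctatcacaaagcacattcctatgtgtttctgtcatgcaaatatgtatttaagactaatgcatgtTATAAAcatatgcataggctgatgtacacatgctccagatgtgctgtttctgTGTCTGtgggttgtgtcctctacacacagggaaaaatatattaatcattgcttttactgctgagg
CAGACA occurred once before Col1a2, 175 to 170 bases upstream, and on both strands before Col3a1, 239 to 234 bases upstream on the same strand and 65 to 60 bases upstream on the opposite one. Windows from 250 bases before to 50 after the start were listed for 32 of the 40 members, 35 windows in all. CAGACA stood in 25.7% of them and in 21.04% of all 32851 windows, CCAAT in 34.3 and 37.4%, TATAAA in 11.4 and 13.6%, and GGGCGG in 60 and 35.7%. A match is a description of the letters and not a site.

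The other fibrillar chains lay below Col3a1 in every library. Type V collagen nucleates type I fibrils, and its chains behaved unlike one another. Col5a1 stood at 1773, 1924, 1888, 1272, 1712 and 2992 CPM, and Col5a2 at 1271, 1150.4, 1136, 989, 2096 and 4274 CPM. Col5a3, a chain of a minor form of type V, stood at 61.7, 61.5, 64.6, 22.1, 102 and 860.3 CPM, so that the double heterozygote stood far above the other 5. Col11a1, a chain of type XI that forms cores of cartilage fibrils and is also made in fibroblasts, stood at 368, 342, 412, 183, 149 and 325 CPM. Col24a1 stood at 79.5, 68.3, 78.2, 50.7, 10.4 and 107 CPM, and Col27a1 at 35.2, 42.8, 41.8, 17.1, 15.8 and 50.03 CPM. Col11a2 was scarce, between 0.897 and 4.94 CPM.

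Col2a1, the chain of cartilage type II collagen on chromosome 15 (15:97975602 to 98004724 on GRCm38), followed a pattern of its own. It stood at 3.36, 10.6, 33.5, 5.43, 151 and 9.55 CPM, from 38, 72, 224, 56, 3400 and 300 counts. WT was the lowest of the 6 and Smad3-/- the highest. The chains of type IX, which decorate type II fibrils in cartilage, were scarce in all libraries: Col9a1 lay between 0.0885 and 1.34 CPM, Col9a2 between 0.291 and 2.48 CPM and Col9a3 between 1.33 and 3.73 CPM.

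Among the network collagens, Col4a1 and Col4a2 encode the chains of the common type IV heterotrimer of basement membranes. Col4a1 stood at 497, 322, 508, 469.7, 1537 and 2076 CPM and Col4a2 at 469, 309.8, 469.95, 462, 752 and 1705 CPM. Both were highest in the double heterozygote. Their loci on chromosome 8 overlap at their starts on GRCm38, at 8:11198423 to 11312889 and 8:11312805 to 11449287, and the strand setting of the counting is not given, so reads in the overlap cannot be told apart. Col8a1, a chain of the hexagonal type VIII network, stood at 535, 657, 603, 218, 278 and 180.3 CPM and was highest in WT and the Sptbn1 libraries. Its partner Col8a2 stood at 4.87, 7.07, 4.63, 1.65, 7.37 and 41.3 CPM and was highest in the double heterozygote. Col10a1, the chain of hypertrophic cartilage, lay between 2.33 and 4.63 CPM in 5 libraries and at 22.6 CPM in the double heterozygote. Col4a3 and Col4a4, chains of the kidney glomerular basement membrane whose loci also overlap, stayed between 0.127 and 1.33 CPM.

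The X-linked pair Col4a5 and Col4a6, which encode further type IV chains, lies head to head. The start sites of their promoter windows are 1343 bases apart and lie just inside the gene bounds. Col4a5 stood at 40.3, 34.3, 45.9, 42.6, 117 and 184 CPM and Col4a6 at 3.72, 5.30, 7.92, 3.97, 10.3 and 15.5 CPM. In Smad3+/-, the library with high Xist, Col4a5 was at 105.7% of WT (ratio 1.06, 0.925 to 1.21) and Col4a6 at 106.9% (ratio 1.07, 0.678 to 1.69). Both were highest in the double heterozygote and next highest in Smad3-/-. Their upstream stretches are shown because the 2 genes lie so close and were called in the same libraries. They are from RefSeq on GRCm38.p6, at chrX:141475169-141475369 on the plus strand for Col4a5 and at chrX:141474096-141474326 on the minus strand for Col4a6, and capitals mark the same 4 motifs.
Col4a5: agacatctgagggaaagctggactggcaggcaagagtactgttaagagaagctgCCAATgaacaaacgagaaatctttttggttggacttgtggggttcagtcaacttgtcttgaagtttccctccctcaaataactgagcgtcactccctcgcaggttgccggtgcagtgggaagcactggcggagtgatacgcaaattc
Col4a6: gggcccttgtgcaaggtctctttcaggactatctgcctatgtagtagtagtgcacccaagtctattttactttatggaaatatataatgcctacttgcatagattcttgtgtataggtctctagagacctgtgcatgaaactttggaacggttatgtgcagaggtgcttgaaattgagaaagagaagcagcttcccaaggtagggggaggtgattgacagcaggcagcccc
One CCAAT lay before Col4a5, 196 to 192 bases upstream of its start site, and none of the 4 motifs lay in the stretch shown for Col4a6. Both stretches end short of the start site. The full windows, which run to 50 bases after it, held GGGCGG for both genes.

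A single gene dominated the FACIT class. Col12a1, which encodes a collagen of the surface of type I fibrils in tendon and other dense tissue, stood at 5995, 5843, 5264, 6122, 889 and 2060.3 CPM. It made up 98.1% (exact 95% interval 98.0 to 98.2) of the FACIT counts in WT and 82.8% (82.3 to 83.3) in Smad3-/-. Smad3-/- and the double heterozygote were low, and the other 4 libraries lay within 5264 and 6122 CPM. Col14a1, a relative of Col12a1, stood at 42.7, 67.1, 59.5, 14.3, 5.86 and 41.5 CPM. Col16a1 stood at 68.5, 65.5, 71.6, 43.8, 171 and 350.7 CPM, and was thus high in Smad3-/- and the double heterozygote. Col19a1, Col20a1 and Col22a1 stayed at or below 2.54 CPM.

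In the remaining class, type VI chains were the most abundant. Col6a1 stood at 701, 869, 784, 392, 1042 and 2113 CPM, Col6a2 at 676, 856, 800.03, 337, 422 and 1311 CPM, and Col6a3 at 886, 1118, 967, 735, 941 and 1597 CPM. All 3 were highest in the double heterozygote and lowest in Smad3+/-. Col18a1, the source of the fragment endostatin, stood at 64.5, 61.4, 59.02, 19.0, 84.5 and 489 CPM. Its relative Col15a1 stood at 40.8, 22.7, 36.6, 8.14, 13.6 and 16.3 CPM, with WT the highest. Col7a1, the chain of anchoring fibrils, stood at 42.4, 26.7, 27.8, 38.3, 81.4 and 77.6 CPM. Col23a1, a transmembrane collagen, stood at 17.2, 15.9, 16.9, 6.11, 5.69 and 46.4 CPM, and Col28a1 at 11.3, 12.2, 9.12, 4.46, 7.64 and 7.83 CPM. Col17a1, the transmembrane collagen of epithelial hemidesmosomes, stood at 1.15, 1.18, 1.64, 4.07, 1.24 and 0.382 CPM. Col6a6 and Col25a1 reached 8.66 and 5.38 CPM in the double heterozygote and no more than 2.24 and 0.589 CPM in the other 5.

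**Figure D2:**
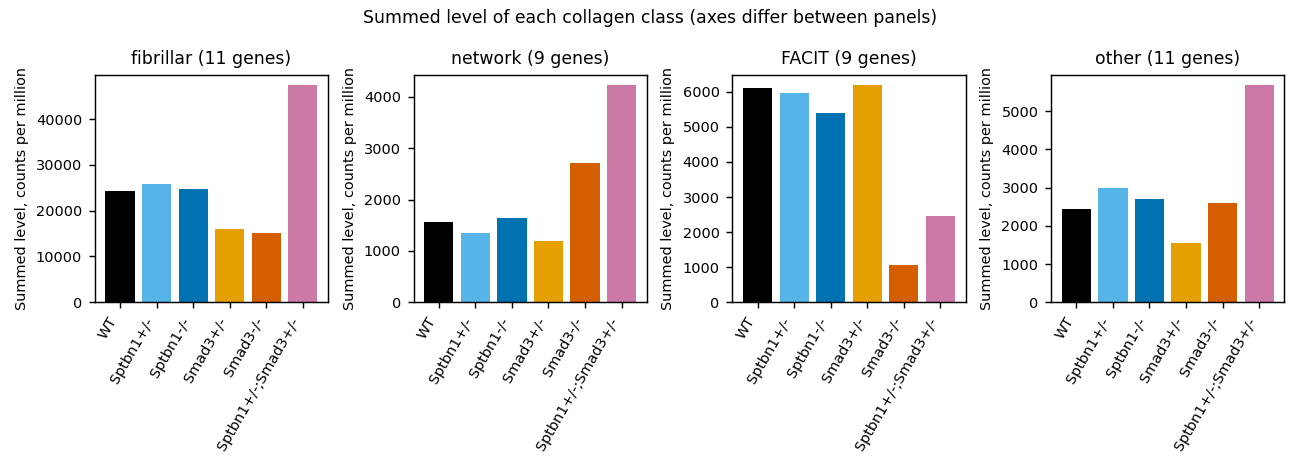
Summed level of each collagen class in CPM, 1 bar per library, with no error bar since each genotype has 1 library. Fibrillar, network and other chains are highest in the double heterozygote, at 47369, 4225 and 5673 CPM, and FACIT chains lowest in Smad3-/-, at 1074 CPM.

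Libraries with a mutant Sptbn1 label alone showed few differences in collagen chains. In Sptbn1+/-, 1 of 40 members was higher against a background of 0.635% and none was lower against 1.2%. In Sptbn1-/-, 2 of 40 were higher against 0.648% and none was lower against 0.412%. Col2a1 was 3.15-fold (2.10 to 4.80) higher than WT in Sptbn1+/- and 9.96-fold (7.04 to 14.4) higher in Sptbn1-/-. Between Sptbn1-/- and Sptbn1+/- it differed by 3.16-fold (2.41 to 4.18), the only member called in that comparison, where the background was 0.925% higher and 0.378% lower. Col9a1 was 15.2-fold (2.11 to 666) higher in Sptbn1-/-, from 9 counts against 1. Col9a1 reached 1 CPM in that library alone, so the rule that took it also favoured this call. The abundant chains lay near WT in Sptbn1-/-: the ratio was 1.02 (1.01 to 1.03) for Col1a1, 1.04 (1.02 to 1.05) for Col1a2 and 0.974 (0.960 to 0.988) for Col3a1. In Sptbn1+/-, Col4a1 was at 64.8% and Col4a2 at 66.1% of WT, and their intervals reached within 1.5-fold. The median log2 ratio to WT over the members was 0.09 in Sptbn1+/- and 0.04 in Sptbn1-/-, against -0.01 and 0.00 over all genes.

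Besides the collagen chains Col2a1 and Col9a1, other cartilage genes were followed in a list of markers. Of 8 cartilage markers at 1 CPM or more, 0 were higher and 0 lower in either Sptbn1 library, and their summed level over the 11 markers found was 69.4, 94.4, 75.9, 60.1, 27.5 and 61.4 CPM. Sox9, the transcription factor that drives Col2a1 in cartilage, stood at 43.3, 67.7, 55.9, 51.7, 11.4 and 26.4 CPM. Acan, the main cartilage proteoglycan, stood at 3.80, 4.42, 4.33, 0.969, 7.51 and 0.860 CPM. Smad3-/- thus held the most Col2a1 and the least Sox9. Comp, a cartilage matrix protein, was at 0 counts in Sptbn1+/- and at 21.1 CPM in the double heterozygote. Of the 8 markers 2 were higher than WT in the double heterozygote, Comp among them, and 3 lower, Acan among them. The background was 21.6 and 19.1%. In Smad3+/- 0 were higher and 2 lower, against 1.64 and 4.46%, and in Smad3-/- 0 and 2, against 24.2 and 25.2%. The part of cartilage cells in the Col2a1 levels was not tested.

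**Figure D3:**
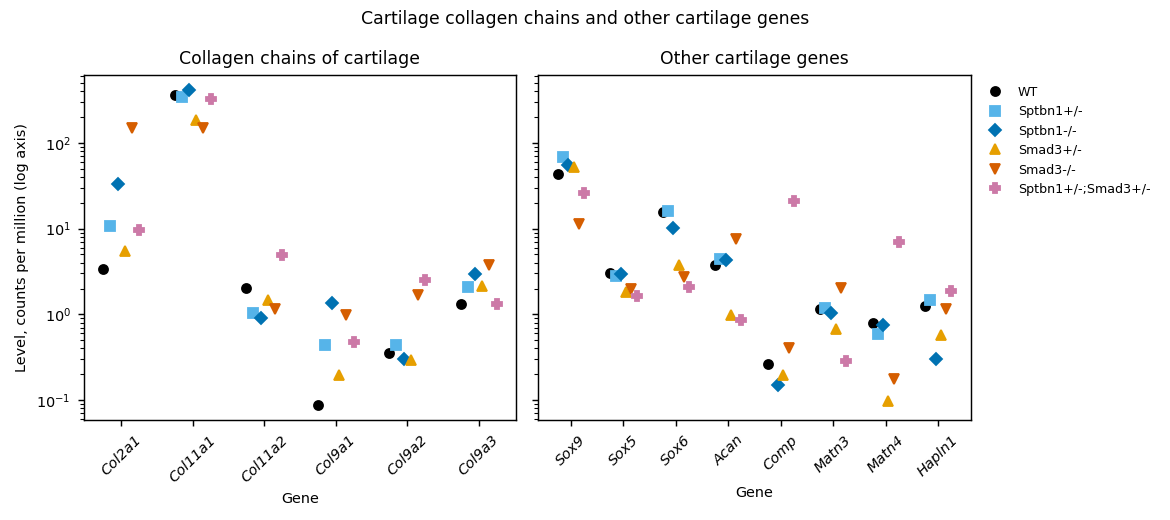
Levels of 6 collagen chains of cartilage (left) and 8 other cartilage genes (right) in CPM on a log axis, 1 symbol per library; a value of 0 is not drawn. Col2a1 runs from 3.36 CPM in WT to 151 CPM in Smad3-/-, whereas Sox9 is lowest in Smad3-/-, at 11.4 CPM.

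In Smad3+/-, collagen chains were more often lower than higher. Of 40 members 13 were lower, or 32.5% against a background of 4.46%, and 1 was higher against 1.64%. The lower members were 4 of 11 fibrillar, 2 of 9 network, 1 of 9 FACIT and 6 of 11 other chains. Col15a1 was 5.01-fold (3.96 to 6.40) lower, Col18a1 3.40-fold (2.90 to 3.996), Col3a1 2.96-fold (2.91 to 3.01) and Col14a1 2.98-fold (2.47 to 3.61). Col5a3 was 2.79-fold (2.40 to 3.26) and Col8a1 2.45-fold (2.34 to 2.58) lower. The remaining 7 were Col8a2, Col23a1, Col28a1, Col27a1, Col6a2, Col11a1 and Col6a1, at 1.79-fold to 2.95-fold lower. Type I chains did not pass, with Col1a1 at 74.1% and Col1a2 at 70.9% of WT, nor did Col12a1, at 102.1%. The median over the members was -0.49 on the log2 scale, against 0.01 over all genes.

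The 1 higher member was Col17a1, 3.54-fold (1.86 to 7.19) higher. Of 7 epithelial markers at 1 CPM or more, 3 were higher in the same library, Krt14, Krt5 and Krt19, and the summed epithelial level was 11.6, 8.25, 9.41, 29.4, 69.5 and 6.72 CPM. Markers of neural and glial cells were lower in Smad3+/- for 7 of 11, with summed levels of 322, 294, 372, 195, 529.9 and 102 CPM. The high sum in Smad3-/- held 392 CPM of Nes, the progenitor filament nestin, whereas 7 of 11 were lower than WT there and 3 higher, with a median log2 ratio of -3.32. Gfap, a glial filament, was at 0 counts in that library. The part of both in the collagen levels was not tested.

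In Smad3-/-, members moved in both directions at about the rate of all genes. Of 40 members 12 were higher against a background of 24.2% and 13 were lower against 25.2%. Among 11 fibrillar chains 3 were higher and 5 lower, among 9 network chains 4 and 2, among 9 FACIT chains 4 and 3, and among 11 other chains 1 and 3. Members are named in order of the interval end nearest to 1, not of the fold. Col2a1 was 44.9-fold (32.7 to 63.6) higher, followed by Col4a1 at 3.09-fold (3.01 to 3.18), Col4a5 at 2.89-fold (2.62 to 3.20), Col16a1 at 2.49-fold (2.30 to 2.69) and Col4a6 at 2.77-fold (1.99 to 3.95). Col9a1 was 11.05-fold (1.79 to 456) higher, from 22 counts against 1. The type IV chains went both ways. Col4a1, Col4a2, Col4a5 and Col4a6 were called higher, Col4a4 lower, from 6 counts against 15, and Col4a3 neither. In the same order, the lower members were led by Col12a1 at 6.74-fold (6.64 to 6.85), Col24a1 at 7.65-fold (6.62 to 8.87) and Col14a1 at 7.29-fold (5.999 to 8.90). Col1a1 was 3.22-fold (3.19 to 3.25), Col15a1 2.99-fold (2.58 to 3.47) and Col23a1 3.02-fold (2.40 to 3.80) lower. Col1a2 passed narrowly, at 1.54-fold (1.52 to 1.55) lower, whereas Col3a1, at 74.8% of WT, did not pass. The median was -0.04, against 0.05 over all genes. When libraries were scaled by total counts it was 0.05, against 0.14 over all genes.

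Against Smad3+/-, Smad3-/- had 14 members higher, with a background of 22.6%, and 5 lower, with 22.3%. Col2a1 was 27.8-fold (21.4 to 36.9) and Col5a3 4.63-fold (4.04 to 5.33) higher, and Col12a1 was 6.88-fold (6.77 to 6.99) lower. All 12 macrophage and leukocyte markers were lower in Smad3-/- than in WT, with summed levels of 2578, 1636, 1718, 2431, 67.7 and 1904 CPM. Of 12 fibroblast markers 2 were higher and 7 lower there, and the bone transcription factor Runx2 stood at 11.6 CPM against 143 in WT. The part of these in the collagen levels was not tested.

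The double heterozygote had the most members higher. Of 40 members 25 were higher than WT, or 62.5% against a background of 21.6%, and 4 were lower, or 10.0% against 19.1%. The higher members were 8 of 11 fibrillar, 6 of 9 network, 3 of 9 FACIT and 8 of 11 other chains. Among them, Col22a1 and Col25a1 reached 1 CPM in this library alone, so the rule that took them also favoured their calls. Col5a3 was 13.9-fold (12.9 to 15.0) higher, Col18a1 7.58-fold (7.04 to 8.17) and Col8a2 8.49-fold (6.48 to 11.3). Col6a6 was 10.9-fold (5.65 to 24.1), Col10a1 6.91-fold (4.96 to 9.89) and Col16a1 5.12-fold (4.76 to 5.52) higher. The chains of type IV basement membrane followed, with Col4a5 at 4.56-fold (4.14 to 5.02), Col4a1 at 4.18-fold (4.07 to 4.30) and Col4a2 at 3.64-fold (3.54 to 3.74). The chains of type V were higher by 3.36-fold (3.31 to 3.42) for Col5a2 and 1.69-fold (1.66 to 1.71) for Col5a1. The chains of types I and III were higher too, Col3a1 by 2.56-fold (2.53 to 2.58), Col1a2 by 1.76-fold (1.75 to 1.78) and Col1a1 by 1.61-fold (1.60 to 1.62). The 4 lower members were Col12a1, at 2.91-fold (2.88 to 2.94), Col8a1, at 2.97-fold (2.86 to 3.08), Col15a1, at 2.51-fold (2.20 to 2.85), and Col4a4, at 10.4-fold (3.32 to 43.1) from 4 counts against 15. The median was 1.10 on the log2 scale, against 0.06 over all genes. In the same library 8 of 11 neural and glial markers and 3 of 7 epithelial markers were lower than WT, and 0 of either were higher. Macrophage and leukocyte markers were higher for 1 and lower for 6 of 12. Their part in the collagen levels was not tested.

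Against the single heterozygotes the picture was alike. Compared with Sptbn1+/-, 21 members were higher, against a background of 21.1%, and 3 lower, against 18.3%. Compared with Smad3+/-, 29 were higher, against 22.5%, and 3 lower, against 19%. Col5a3 was 13.98-fold (12.7 to 15.4) and 38.9-fold (34.2 to 44.6) higher in these comparisons, and Col18a1 7.96-fold (7.22 to 8.79) and 25.7-fold (22.3 to 29.8). Of the fibrillar chains, 10 of 11 were higher than in Smad3+/-. The make-up of reads differed in the same way, as given above. Over the 40 members, Spearman's rho between the GC content of the transcript and the log2 ratio to WT was 0.30 in the double heterozygote and 0.42 in Smad3-/-, against 0.37 and 0.17 over 12541 genes, and between -0.03 and 0.10 in the other 3 mutants; points share a library and its depth. The part of GC content in the results was not tested.

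**Figure D4:**
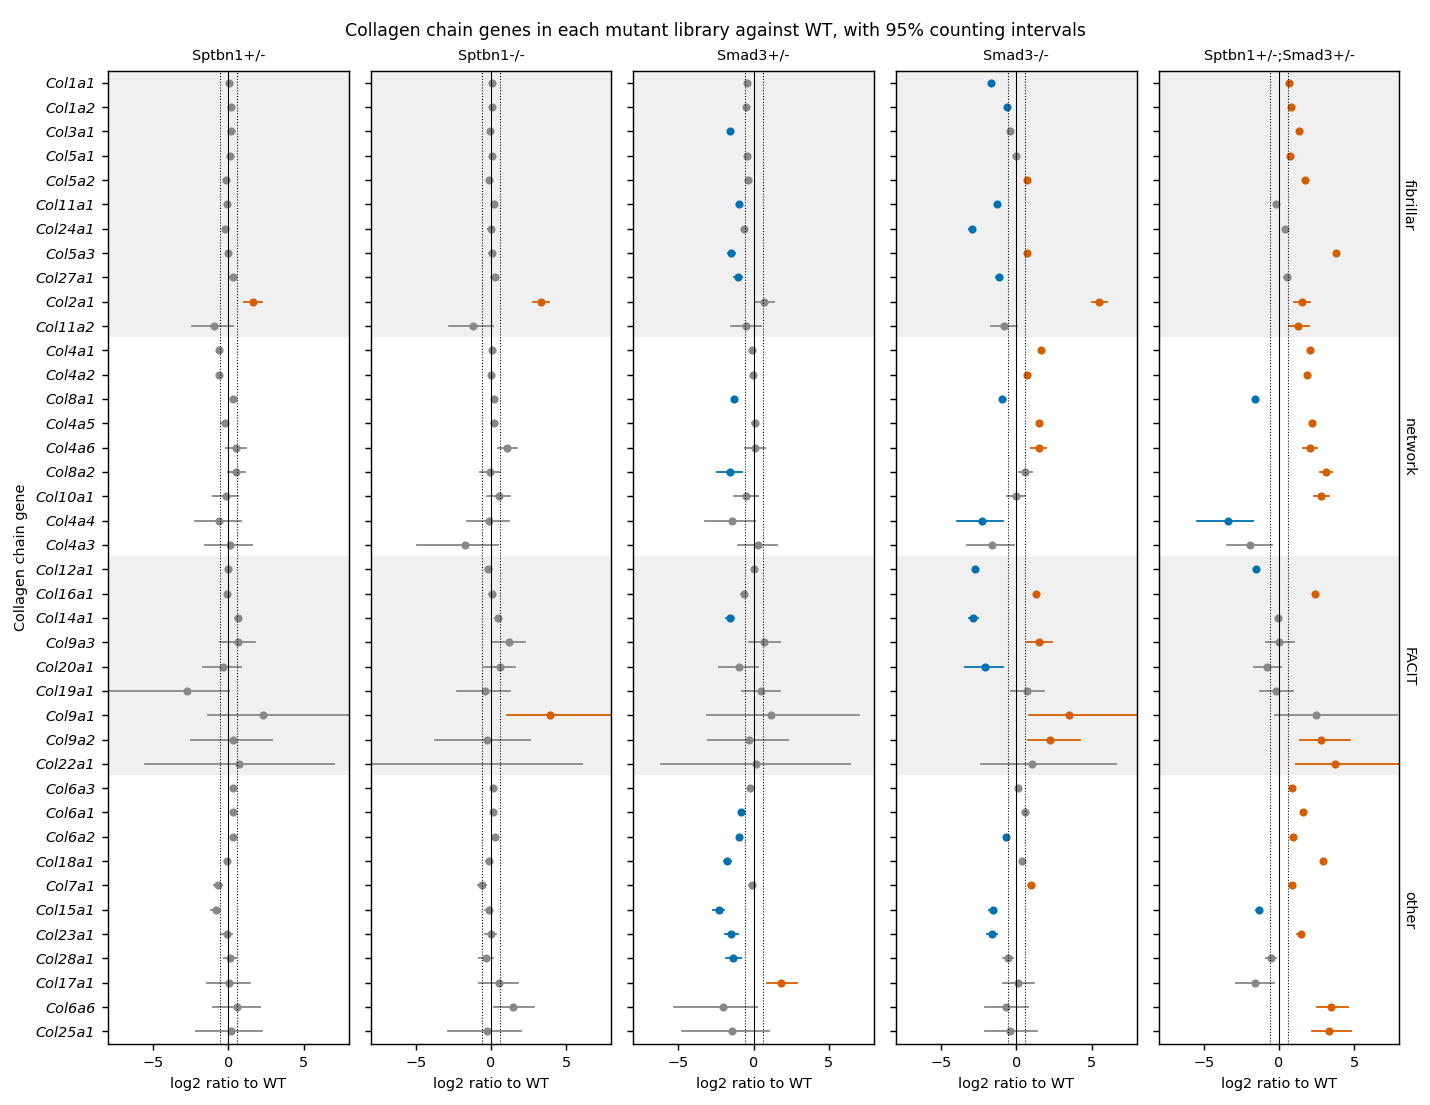
Log2 ratio of each collagen chain gene in each mutant library against WT, with its exact 95% counting interval as a line; intervals that run past the axis are cut at its edge. Dotted lines mark 1.5-fold, orange points are called higher, blue points lower and grey points neither. The counts called higher are 1, 2, 1, 12 and 25 of 40 from left to right, and those called lower 0, 0, 13, 13 and 4.

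Over the 5 mutants, which were all set against the same WT library, 19 members were only ever called higher, 10 only ever lower and 9 both ways, and Col19a1 and Col4a3 were called in none. These are 47.5, 25, 22.5 and 5% of the members, beside 31.5, 29.1, 4.77 and 34.6% of all 14810 genes. Col2a1 was higher in 4 of the 5, and 1.61-fold (1.05 to 2.51) above WT in Smad3+/- without passing. Col15a1 and Col8a1 were lower in all 3 libraries with a mutant Smad3 label. The call turned with the genotype for both type I chains, which were lower in Smad3-/- and higher in the double heterozygote, and for Col3a1, Col18a1, Col6a1, Col8a2, Col5a3, Col23a1 and Col6a2. The lower call of Col1a2 in Smad3-/- was narrow and did not hold when libraries were scaled by total counts.

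Ratios of partner chains within a library do not depend on how libraries are scaled, and since they are not per length each is read only against the same ratio in WT. In Sptbn1+/-, Sptbn1-/- and Smad3+/-, 0 of 9 pairs lay beyond 1.5-fold of the WT ratio, against 5 in Smad3-/- and 6 in the double heterozygote. No share over other pairs of genes was computed, so these counts have no background. Of all single genes, 24.2% were higher and 25.2% lower than WT in Smad3-/-, and 21.6 and 19.1% in the double heterozygote. Type I collagen usually holds 2 chains of Col1a1 and 1 of Col1a2. The count ratio of Col1a2 to Col1a1 was 0.751, 0.843, 0.760, 0.719, 1.57 and 0.824, and only Smad3-/- passed, at 2.10 times the WT ratio (2.07 to 2.12). The ratio of Col4a2 to Col4a1 was 0.944, 0.962, 0.924, 0.983, 0.490 and 0.821, and in Smad3-/- it was 0.519 times that of WT (0.497 to 0.541). The ratio of Col5a2 to Col5a1 was 0.717, 0.598, 0.601, 0.777, 1.22 and 1.43. The 2 libraries with the higher share of reads on genes lay above the others in it.

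The ratio of Col6a1 to Col6a2 was 1.04, 1.01, 0.980, 1.17, 2.47 and 1.61, and that of Col6a3 to Col6a1 was 1.26, 1.29, 1.23, 1.87, 0.904 and 0.756. Type VI chains assemble in equal numbers. The first ratio passed in Smad3-/- and the double heterozygote, and the second in the double heterozygote. The ratio of Col4a6 to Col4a5 was 0.0921, 0.155, 0.173, 0.0932, 0.0882 and 0.0842 and passed in none. The ratio of Col8a2 to Col8a1 was 2.92 times (2.15 to 3.97) that of WT in Smad3-/- and 25.2 times (19.2 to 33.1) in the double heterozygote. In the latter the ratio of Col9a2 to Col9a3 was 6.96 times (2.17 to 22.3) and that of Col11a2 to Col11a1 2.75 times (1.77 to 4.26) that of WT. Across collagens, Col3a1 counts per Col1a1 count were 0.479, 0.528, 0.456, 0.219, 1.15 and 0.762, lowest in Smad3+/- and highest in Smad3-/-.

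**Figure D5:**
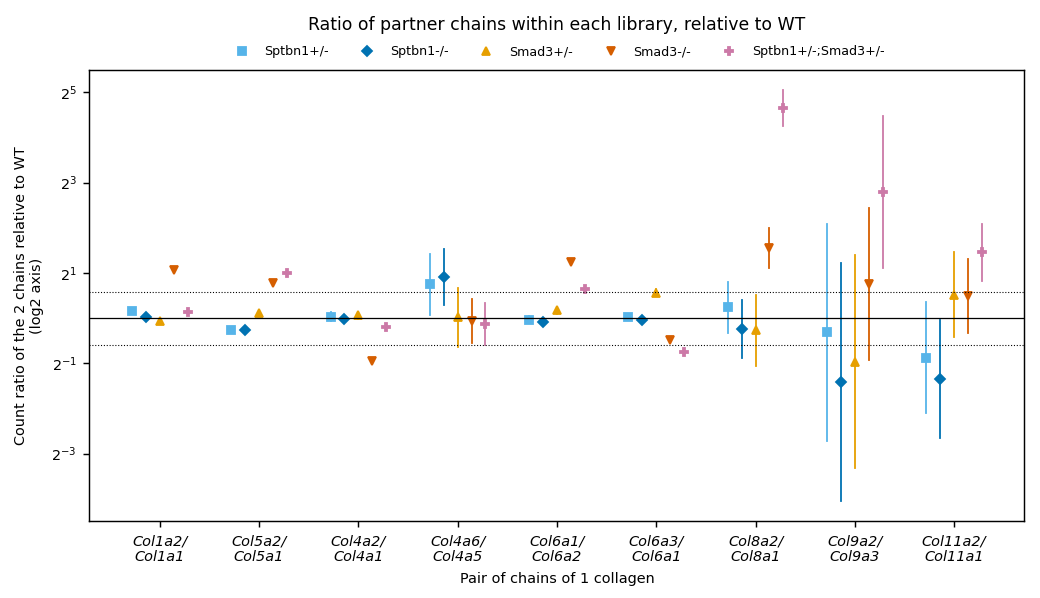
Ratio of the counts of 2 chains of 1 collagen in each mutant library, divided by the same ratio in WT, on a log2 axis with 95% counting intervals; dotted lines mark 1.5-fold. Points for Sptbn1+/-, Sptbn1-/- and Smad3+/- have no interval wholly beyond the lines, while Col1a2/Col1a1 stands at 2.10 in Smad3-/- and Col8a2/Col8a1 at 25.2 in the double heterozygote.

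Genes that modify, process and bind collagen were followed in lists made with earlier results of these data known. Their counts are to be read beside the background given above, which was 24.2% higher and 25.2% lower in Smad3-/- and 21.6% higher and 19.1% lower in the double heterozygote. Of 18 genes for chain modification and folding, 0 were called in either Sptbn1 library, 2 were lower in Smad3+/-, 5 were higher and 6 lower in Smad3-/-, and 11 were higher and 0 lower in the double heterozygote. The Smad3-/- counts, 5 and 6 of 18, lay near the background. Plod2 and Plod1, lysyl hydroxylases, were 1.77-fold (1.67 to 1.87) and 1.78-fold (1.65 to 1.93) lower in Smad3+/-. P4hb, the shared subunit of prolyl hydroxylase, was 5.03-fold (4.86 to 5.21) higher in Smad3-/- and 3.99-fold (3.86 to 4.13) higher in the double heterozygote. Creb3l1, a transcription factor for type I collagen and secretion genes, was 11.8-fold (10.6 to 13.2) lower in Smad3-/-, and P4ha3, a catalytic subunit of prolyl hydroxylase, was 6.83-fold (6.17 to 7.56) lower. In the double heterozygote Leprel2, the older symbol of the prolyl hydroxylase P3h3, was 3.44-fold (3.18 to 3.73) and the isomerase Ppib 3.13-fold (2.92 to 3.36) higher.

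Of 16 genes for propeptide processing, cross-linking and fibril assembly, 0 were called in either Sptbn1 library, 3 were lower in Smad3+/-, 4 were higher and 8 lower in Smad3-/-, and 6 were higher and 2 lower in the double heterozygote. Dcn and Lum, proteoglycans that bind fibrils, were 23.6-fold (22.3 to 25.0) and 7.19-fold (6.60 to 7.85) lower in Smad3-/-. Sparc, a collagen-binding protein, was 4.996-fold (4.94 to 5.05) lower there. In the double heterozygote Lum was 7.41-fold (7.11 to 7.72) and the cross-linking oxidase Loxl1 3.06-fold (2.93 to 3.20) higher, and Pcolce2, an enhancer of propeptide cleavage, 3.49-fold (2.62 to 4.65) lower. Of 9 collagen receptors, 0 were called in either Sptbn1 library, 2 were lower in Smad3+/-, 1 was higher and 4 lower in Smad3-/-, and 3 were higher and 3 lower in the double heterozygote. Itga11, the alpha subunit of a fibroblast integrin for fibrillar collagen, stood at 367, 397, 366, 79.5, 10.8 and 123 CPM, and was called lower in all 3 libraries with a mutant Smad3 label. Ddr1, a receptor kinase for collagen, was 3.46-fold (3.13 to 3.84) higher in the double heterozygote.

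A fit over all 6 libraries gave the only test with replication across genotypes. edgeR's quasi-likelihood test related each of 14085 genes to the number of mutant alleles, with 3 residual degrees of freedom. After Benjamini-Hochberg adjustment 0 of 37 members passed 0.05 for Smad3 or for Sptbn1, beside 0% of all genes tested. At an unadjusted p under 0.05 there were 8 members for Smad3, against a background of 24.2%, and 1 for Sptbn1, Col4a6, against 0.149%. The lowest adjusted p of edgeR's quasi-likelihood test for Smad3 was that of Col14a1, at 0.160, with a log2 change of -1.23 per labelled allele. Col2a1 had a log2 change of 2.51 per Smad3 allele (edgeR, adjusted p = 0.161) and 1.62 per Sptbn1 allele (edgeR, adjusted p = 1.00). DESeq2's Wald test called 4 of 37 members for Smad3, a share below that of all genes, of which 2057 or 14.6% were called. They were Col2a1, Col12a1, Col14a1 and Col4a1. Smad3-/- and the double heterozygote were also the libraries with the higher share of reads on genes. The number of Smad3 alleles and this make-up thus cannot be fully told apart. For Sptbn1 it called 0 genes, with 59 genes and 3 members at an unadjusted p under 0.05.

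The same edgeR fit on the 4 lower-share libraries, chosen after the data were seen and with 1 residual degree of freedom, called 1 of 13786 genes for Sptbn1, or 0.00725%. That gene was Col2a1, with a log2 change of 1.65 per allele and an adjusted p of 0.0232 by edgeR's quasi-likelihood test. The term rests on 3 libraries, 1 per allele number. Its error comes from their departure from a straight line and holds no spread between embryos of a genotype. The Smad3 term of this fit rests on the Smad3+/- library alone, which was also the one with high Xist, so genotype, sex and embryo cannot be told apart and its calls are no test of Smad3.

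Intervals that hold only counting error make the calls above narrow. With intervals widened by the dispersion of the 6-library fit, which has a common coefficient of variation of 0.467, no member was called in Sptbn1+/-, where 0.0743% of all genes were higher and 0.0675% lower, or in Smad3+/-, with 0.155 and 0.5%. Col2a1 kept its call in Sptbn1-/- (2.58 to 37.6), where the background was 0.054% higher and 0.027% lower. In Smad3-/- 1 member was higher, Col2a1 (11.7 to 168), against 2.53% of all genes, and 3 of 40 were lower, Col12a1, Col14a1 and Col24a1, against 10.2%. In the double heterozygote 6 of 40 were higher, against 2.34%: Col5a3, Col18a1, Col8a2, Col6a6, Col10a1 and Col25a1. Of these, Col25a1 was a member through that library alone. One lower member, Col4a4, kept its call there, against 4.92%. With the dispersion within the 4 lower-share libraries, at a coefficient of 0.112, 9 of the 13 lower members of Smad3+/- kept their call. Over all genes 3.13% were lower, and the members lost were Col11a1, Col27a1, Col6a1 and Col6a2. That fit follows the Smad3+/- library exactly, so its dispersion comes from WT, Sptbn1+/- and Sptbn1-/- alone. It measures no spread of Smad3+/- or between embryos of a genotype, and cannot show that these calls would repeat.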

How the data were processed

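RNA was sequenced from 6 mouse embryonic fibroblast cultures, 1 per genotype, and the labels number no replicates and name no batch. For each library the authors deposited unscaled counts of reads per gene symbol. Tools listed without roles in the submitters' processing notes are HTSeq, TopHat2 2.0.10, DESeq2, Trimmomatic and FastQC, and the build is mm9. The annotation, counting mode and strand setting are not given in the sources used here. The 5 summary lines of each table stayed out of library sizes and tests; of all counted alignments, those on no feature were 11.9 to 32.6% and those at several sites 32.5 to 47.1%. CPM is relative to the total on genes times the TMM factor of edgeR 4.0.16 (R 4.3.3, limma 3.58.1). Ratios of 9 pairs of libraries carry exact intervals from scipy 1.17.1. Medians of log2 ratios use a pseudocount of 0.5 counts. The allele-dose fit was edgeR's robust quasi-likelihood test over genes that reach 1 CPM in 2 libraries or more, with Benjamini-Hochberg adjustment, and DESeq2 1.42.0 was an alternative. Transcript lengths and GC content of the members are those of the longest protein-coding GENCODE M21 transcript. For the other genes GC content is that of the longest transcript of any type. Of the genes tested, 84.7% had a transcript under the same symbol. Positions and promoter windows are from RefSeq on GRCm38.p6, not the build of the counts. Values in all libraries are given for members that reach 100 CPM, for the 6 members called higher and the 6 called lower in each mutant with the interval bound farthest from 1, for partner chains with at least 1 CPM and for X-linked members, beside some others. Of each further list up to 3 genes per comparison are named. The members, lists, markers and this rule were chosen with earlier results of these data known. Besides the marker lists given with the results, 8 bone, 6 endothelial and 6 skeletal muscle markers were tested. Higher and lower than WT in Smad3-/- were 0 and 2 bone, 1 and 3 endothelial and 3 and 1 muscle markers, and in the double heterozygote 1 and 4, 2 and 1, and 1 and 2. In the other 3 mutants 0 or 1 of each list was called in either direction.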

Additional observations from a re-analysis of the deposited data

Results flagged for a closer look

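For 6 members the library pair that differs by 1 mutant Smad3 label went one way in the WT background and the other way in the Sptbn1+/- background. Each was called lower in Smad3+/- than in WT and higher in the double heterozygote than in Sptbn1+/-. Col5a3 was at 35.8% of WT in Smad3+/- and 13.98-fold higher in the second pair, and Col18a1 at 29.5% and 7.96-fold higher. Col8a2 was at 33.9% and 5.84-fold higher, and Col23a1 at 35.6% and 2.92-fold higher. Col6a1 was at 55.99% and 2.43-fold higher, and Col3a1 at 33.8% and 2.30-fold higher. These are 15% of the 40 members, beside 1.09% of the 14810 genes. The difference between the pairs was not tested, since each genotype has 1 library. The double heterozygote also had the higher share of reads on genes and Smad3+/- high Xist, and their part was not tested.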

How the results depend on the processing

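Each genotype has 1 library, so the counts of members depend on the error assumed. With intervals widened by the dispersion of the 6-library fit, the members higher and lower than WT fell to 0 and 0 in Sptbn1+/-, 1 and 0 in Sptbn1-/-, 0 and 0 in Smad3+/-, 1 and 3 in Smad3-/- and 6 and 1 in the double heterozygote. They fell to 0 higher in Sptbn1-/- against Sptbn1+/- (0.054% of all genes), and to 1 and 1 in Smad3-/- against Smad3+/- (2.24 and 8.56%). In the double heterozygote they fell to 8 and 0 against Sptbn1+/- (2.67 and 5.12%) and to 9 and 1 against Smad3+/- (3.31 and 4.20%). The members that went opposite ways in the 2 Sptbn1 backgrounds fell to 0, and the partner pairs beyond 1.5-fold to 0 in Smad3-/- and 1 in the double heterozygote. The wider interval itself lowers these counts, and lowered those over all genes too, to 2.53% higher and 10.2% lower in Smad3-/- and 2.34 and 4.92% in the double heterozygote against WT. With the dispersion within 4 libraries, added after the data were seen, 6 members were higher in Smad3-/-, beside 17.1% of all genes. That library lies outside those 4. At 2-fold, 0 were higher and 7 lower in Smad3+/-, beside 0.662 and 2.27% of all genes. In Smad3-/- 4 were higher and 7 lower, beside 14.1 and 18.7%. Against Smad3+/- 3 were lower in Smad3-/-, beside 16.2%. Scaling by total counts added 1 lower member in Sptbn1+/-, beside 1.22% of all genes. At 5 CPM, which leaves 30 members, 1 was higher in Sptbn1-/- and 0 in Smad3+/-, beside 0.404 and 1.67% of all genes. In the double heterozygote against Smad3+/- 1 was lower, beside 18.5%. The allele-dose test called 4 of 37 members for Smad3 with DESeq2, beside 14.6% of all genes. On 4 libraries alone, also added after the data were seen, it called 1 for Sptbn1 and 10 for Smad3, where the term is the ratio of the Smad3+/- library to the others and no test of Smad3. Without each library in turn it called 0 to 0 for either gene. The other 129 recomputed counts stayed within 1.5 times the main count or at it. Among them, 11 members were lower in Smad3-/- than in WT with scaling by total counts, beside 23.6% of all genes. Col1a2 lost its call there. Of 360 member ratios 4 changed their side of 1 under another setting, and 0 of those were called. No paired analysis was possible because each genotype has 1 library and the labels give no shared replicate numbers. Depth limits the scarce chains: the Col9 chains, Col22a1 and Col4a4 rest on few counts in WT, and no difference in them of the size of their intervals can be read.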
